A study of Mus musculus with 75 samples.

Results

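Messenger RNA of NeuN-sorted neuron nuclei was compared with that of the intact cerebral cortex in wild type C57BL/6 mice at postnatal day 21. The 10 libraries were chosen by their titles: 2 of cortical neuron nuclei, and 8 of whole cortex that carry 3 title series, with plain numbers (3 libraries), numbers after an r (2) and numbers after an n (3). They are 10 of the 75 samples of a mouse series on the DNA methyltransferase DNMT3A, and no mutant library entered the comparison. All 10 have the same genotype, strain and age and received no treatment that the labels name. The labels do not state how many animals stand behind each group, or whether nuclei of several animals were pooled. Each group held libraries with high and with near-absent Xist, an RNA of female cells, as given at the end.

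NeuN is the protein of Rbfox3, an RNA-binding splicing regulator found in the nuclei of most mature neurons, and an antibody against it lets neuronal nuclei be sorted from homogenised tissue. A sorted nucleus brings the RNA that is being transcribed, spliced or kept in the nucleus, and leaves behind the cytoplasm with its ribosomes, mitochondria and transported messenger RNAs. Whole cortex holds all of these, from neurons, glia, vessels and blood. Cell type, cell compartment and the handling of nuclei during sorting therefore all differ between the groups at once, and in these samples they cannot be told apart.

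Gene counts came to 35.2 and 35.4 M (M, mega) in the nuclei and to between 17.8 and 35.6 M in cortex. The nuclei correlated at 0.993 with each other and at 0.793 to 0.847 with cortex libraries (Pearson r of log2 CPM, the counts scaled to library size, across 17317 genes, which are not independent replicates). The cortex libraries correlated with one another at 0.971 to 0.993. The first principal component held 82.4% of the variance and separated nuclei from cortex, and the second, with 8.9%, separated the plain cortex series from the r and n series. The plain series also differed in read bookkeeping: 16.5% to 17.5% of its reads were set aside as not unique, against 10.97% to 11.9% in the other cortex libraries. In the nuclei this share was lower than in any cortex library, at 2.516% and 2.58%.

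Reads that the counting assigned to no annotated feature made up 27.65% and 26.61% of the nuclei libraries and 7.46% to 8.77% of the cortex libraries. Which feature type was counted is not stated here, so reads in introns of annotated genes may be among them. The sequences behind these reads were not analysed here. Reads of the mitochondrial genome made up 0.0301% and 0.0434% of nuclear gene counts and 11.1% to 15.1% of cortical ones. Ribosomal protein genes took 0.342% and 0.401% in nuclei and 0.970% to 1.42% in cortex. The noncoding RNAs Malat1, Meg3 and Snhg11 together took 4.18% and 3.55% in nuclei and 0.194% to 0.433% in cortex. None of these 4 shares overlapped between groups, and neither did the share of reads that were not unique. Each gave p = 0.022 in a two-sided exact permutation test, the smallest that 45 assignments allow, and 0.022 after adjustment over these 5 shares. The 3 noncoding RNAs were chosen with earlier results of these data known. Meg3 and Snhg11 are also among the 10 largest rises given below, so the test of their share adds no separate support.

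**Figure D1:**
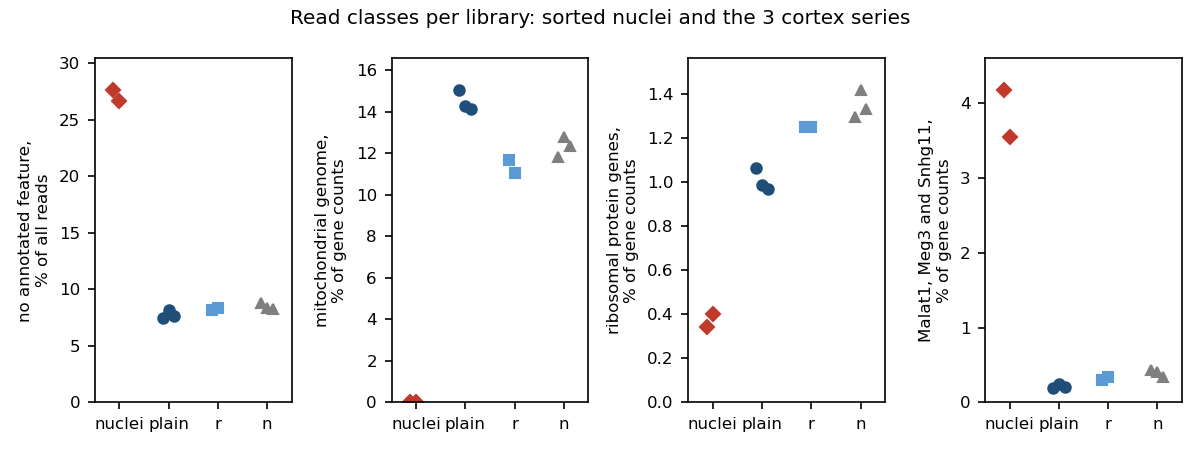
Each panel plots the share of reads or gene counts (vertical axis, percent, from 0) in the 2 nuclei libraries (red diamonds) and the 8 libraries of the plain, r and n cortex series. The nuclei lie above all cortex libraries for reads in no annotated feature, 27.65% and 26.61%, and near 0 for the mitochondrial genome.

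Of 17317 genes with enough counts to test, 14613 (84.4%) were called, meaning an edgeR quasi-likelihood adjusted p under 0.05 and the same direction against each of the 3 cortex series. Of all tested genes, 7309 (42.2%) were higher in nuclei and 7304 (42.2%) were lower. Called genes that differed at least 2-fold against every series numbered 3661 higher (21.1%) and 4282 lower (24.7%). The median log2 fold change of all genes was -0.02, with quartiles of -1.22 and 1.01. The even split and the median near 0 depend on the scaling used. With library size alone 8426 genes were called higher and 6192 lower, and with upper-quartile scaling 6652 and 7963. Against the plain, r and n series separately, 84.5%, 81.2% and 82.7% of genes had an adjusted p under 0.05, and 73.1% passed against all 3. The direction was the same against each series in 90% of genes, whatever their p, and in 78% the 2 nuclei libraries did not overlap the 8 cortex libraries. A call and a lack of overlap were thus the usual outcome, and the counts of genes in each list below are to be read against these shares. Levels are given as CPM, the counts per M reads after scaling, for each nuclei library and as the lowest, median and highest of the 8 cortex libraries, and they compare libraries for 1 gene, not genes with each other. Fold changes are log2 of nuclei over the mean of the 3 cortex series with their standard error (SE), and adjusted p-values are those of edgeR over all genes tested.

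Rbfox3 itself was not called. It reached 178 and 152 CPM in the nuclei and 129.5, 151 and 176 CPM in cortex, and the groups overlapped. The log2 fold change was 0.10 ± 0.08 (SE, adjusted p = 0.23), and without nuclei library 2 it was 0.21 (adjusted p = 0.044). With scaling by library size alone it was 0.36 (adjusted p = 0.00025). Dnmt3a, the gene the series is about, codes for an enzyme that methylates DNA in neurons after birth. Its level was 355 and 340.4 CPM in nuclei and 149, 159.5 and 173 CPM in cortex. Both nuclei libraries lay above all 8 cortex libraries, with a log2 fold change of 1.13 ± 0.07 (adjusted p = 4.2e-11).

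Genes that mark neurons in general did not rise together. Of 20 pan-neuronal genes, 4 were called higher, 12 lower and 4 were not called, with a median log2 fold change of -0.74. The summed level of the list was 6585 and 7204 CPM in nuclei against 8496 to 11550 CPM in cortex. The called rises were in the RNA-binding proteins Elavl2, Elavl3 and Elavl4 and in the enolase Eno2. Elavl4 had 90.7 and 94.0 CPM in nuclei and 37.9, 45.9 and 83.6 CPM in cortex, a log2 fold change of 0.79 ± 0.08 (adjusted p = 3.3e-08). Its rise was 0.17 against the r series alone, where it did not pass (adjusted p = 0.14 with the r libraries as sole controls). The largest fall was in Nefl, the light chain of neurofilaments, with 83.3 and 113 CPM in nuclei and 316, 341 and 408 CPM in cortex (log2 -1.87 ± 0.11). Map2, a microtubule protein of dendrites, and Syt1, the calcium sensor of synaptic vesicles, fell by 0.86 and 0.86 on the log2 scale, each with no overlap between groups.

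Markers of excitatory cortical neurons were mostly higher when counted by gene and lower when summed. Of 23 markers, 14 were called higher and 7 lower, with a median of 0.58, while the summed level was 4110 and 4131 CPM in nuclei against 7191 to 8269 CPM in cortex. Foxp2, a transcription factor of deep-layer neurons, had 25.4 and 34.3 CPM in nuclei against 7.75, 8.71 and 11.8 CPM in cortex (log2 1.70 ± 0.10, adjusted p = 5e-11). Camk2a, the calcium-dependent kinase of excitatory synapses, had 1403 and 1286 CPM against 3835, 4424 and 4614 CPM (log2 -1.69 ± 0.09). Most of the fall in the summed level lay in Camk2a alone. Cux1, known as a factor of upper-layer neurons and expressed in other cells too, had 13.3 and 13.3 CPM against 66.9, 77.9 and 86.2 CPM (log2 -2.54 ± 0.09). In none of these genes did a nuclei library overlap a cortex library.

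Among 19 markers of inhibitory neurons, 6 were called higher, 6 lower and 7 were not called. Their median of 0.06 turned to -0.09 with upper-quartile scaling and to 0.32 with scaling by library size alone. Adarb2, an editing-enzyme relative found in a subset of interneurons, had 39.4 and 37.0 CPM in nuclei and 9.12, 10.1 and 11.3 CPM in cortex (log2 1.91 ± 0.08, adjusted p = 3.8e-13). Sox6, a factor of interneurons that oligodendrocyte precursors and astrocytes also make, had 8.001 and 9.22 CPM against 29.1, 33.1 and 38.9 CPM (log2 -1.94 ± 0.09). Both were without overlap between groups.

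Markers of the striatum, which lies beneath the cortex, were higher in the sorted nuclei. Of 12 tested, 8 were called higher, 1 lower and 3 were not called, and the summed level was 910.2 and 857 CPM against 426 to 559 CPM in cortex. Isl1, a factor of striatal neurons, had 2.89 and 3.35 CPM in nuclei and 0.257, 0.523 and 0.687 CPM in cortex (log2 2.68 ± 0.20, adjusted p = 6.7e-10). Gpr6, a receptor of striatal neurons, had 10.8 and 14.6 CPM against 5.86, 6.91 and 8.92 CPM (log2 0.82 ± 0.14). The 1 fall was in Syndig1l, a membrane protein of striatal neurons, with 12.9 and 14.7 CPM against 19.9, 30.8 and 42.1 CPM.

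Glial, vascular and blood genes were lower almost without exception. All 22 astrocyte markers, all 23 microglia markers, all 23 markers of myelin and oligodendrocytes, all 22 endothelial markers, all 19 mural and meningeal markers and all 9 blood cell markers tested were called lower, each at 2-fold or more against every series. Of the 11 markers of oligodendrocyte precursors, all were called lower and 10 at 2-fold or more. Genes called lower at 2-fold or more made up 24.7% of all genes tested. In bulk RNA, fewer cells of a type and less RNA per cell cannot be told apart.

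The depth of the fall in summed level differed between these lists. The summed astrocyte list stood in nuclei library 1 at 4.82% and in library 2 at 4.93% of its cortex level, and the oligodendrocyte precursor list at 9.52% and 9.20%. The myelin list stood at 2.52% and 2.498%, the microglia list at 2.13% and 2.01%, the endothelial list at 2.90% and 2.73%, and the mural and meningeal list at 2.27% and 1.79%. Both nuclei libraries were alike in each. A sum can rest on few genes: in nuclei library 1, Slc1a2 alone held 554 of the 861 CPM of the astrocyte list. By median log2 fold change the astrocyte and myelin lists lay close, at -5.10 and -5.05. The other medians were -4.49 (precursor), -6.51 (microglia), -6.59 (endothelial) and -5.78 (mural and meningeal).

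Single markers differed in how far they fell. Slc1a3, the astrocytic glutamate transporter GLAST, had 13.6 and 14.4 CPM in nuclei and 1782, 1889 and 2275 CPM in cortex, 139-fold lower (log2 -7.12 ± 0.12, adjusted p = 2.7e-17). Slc1a2, the glutamate transporter GLT-1, which is abundant in astrocytes and also transcribed in some neurons, had 554 and 545 CPM against 7482, 8357 and 11420 CPM, only 15.9-fold lower (log2 -3.99 ± 0.11). Mbp, the myelin basic protein whose messenger RNA is carried out into the myelin sheath, had 103 and 113 CPM against 6091, 8177 and 9322 CPM (log2 -6.16 ± 0.13). Gpr17, a receptor of cells turning into oligodendrocytes, had 2.92 and 2.17 CPM against 192, 209 and 232 CPM (log2 -6.35 ± 0.13).

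Several immune and vascular genes were near absent, but not all. Itgam, the integrin chain CD11b of microglia, had 0.299 and 0.241 CPM in nuclei and 58.2, 72.4 and 84.0 CPM in cortex (log2 -7.99 ± 0.15). C1qa, a chain of complement C1q made by microglia, had 1.12 and 0.772 CPM against 71.4, 90.2 and 109.6 CPM (log2 -6.51 ± 0.13). Abcb1a, the efflux pump of the blood-brain barrier, had 0.474 and 0.145 CPM against 83.7, 100 and 116 CPM, 311-fold lower (log2 -8.28 ± 0.19). Acta2, the actin of vascular smooth muscle, had 0.125 and 0.0483 CPM against 19.6, 30.2 and 54.9 CPM. Slc2a1, the gene of highest level in the endothelial list, kept 19.9 and 27.8 CPM against 170, 283 and 386 CPM, 10.7-fold lower. Rgs5, the gene of highest level in the mural and meningeal list, kept 9.52 and 4.95 CPM against 323, 406 and 570.5 CPM. Every one of these nuclei values lay below all cortex values.

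Choroid plexus, the epithelium that makes cerebrospinal fluid, gave no such even picture. Its summed markers varied from 28.9 to 813 CPM among the cortex libraries and stood at 14.1 and 18.6 CPM in nuclei, and 7 of 15 markers were called lower while 8 were not called. Ttr, the transthyretin made by this epithelium, had 3.54 and 7.55 CPM in nuclei and 18.9, 191 and 737 CPM in cortex. The groups did not overlap, but the call (log2 -5.30 ± 1.91, adjusted p = 0.037) was lost without nuclei library 1 (adjusted p = 0.16), without nuclei library 2 (0.12), and without any of 3 cortex libraries (plain 1, plain 2 or r1, 0.06, 0.058 and 0.051). Kcnj13, a potassium channel of the same epithelium, had no count in either nuclei library and 0.190, 1.19 and 3.90 CPM in cortex. Its call (adjusted p = 0.022) was lost without nuclei library 1 (0.077) or nuclei library 2 (0.078), and it did not pass against the r series (0.064). Of 8 ependymal markers, 6 were called lower and 1, Rsph1, higher. Rsph1 had 2.24 and 2.12 CPM in nuclei and 1.20, 1.65 and 2.31 CPM in cortex, so that the groups overlapped, and its call (adjusted p = 0.04) was lost in 15 of 23 alternatives, among them leaving out either nuclei library (0.15 and 0.088).

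RNAs that stay in the nucleus were higher in the sorted nuclei. Of 9 long noncoding RNAs known to be kept there and tested here, 7 were called higher, 6 of them at 2-fold or more, against a background of 21.1%. The summed level was 37110 and 30680 CPM in nuclei against 2202 to 4615 CPM in cortex. Meg3, the noncoding RNA of an imprinted cluster expressed from the maternal copy, had 21140 and 17810 CPM in nuclei and 1070, 1728 and 2357 CPM in cortex, 11.8-fold higher (log2 3.56 ± 0.09, adjusted p = 8.4e-16). Snhg11, a neuronal noncoding RNA, had 14000 and 11450 CPM against 781, 1340 and 1781 CPM (log2 3.34 ± 0.10). Ftx, a noncoding gene of the X-inactivation center, had 260.5 and 228 CPM against 11.9, 17.0 and 20.3 CPM, 14.5-fold higher (log2 3.86 ± 0.08). In all 3 the lowest nuclei value was several times the highest cortex value. Malat1, the abundant RNA of nuclear speckles, rose by 2.59 on the log2 scale.

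Not every RNA of the list rose. Firre, an X-linked noncoding RNA that shapes nuclear architecture, had 36.0 and 32.2 CPM against 5.36, 10.7 and 15.8 CPM (log2 1.80 ± 0.08). Tug1 rose by 0.28, Neat1, the scaffold of paraspeckles, was not called at -0.25, and Pantr1 fell, with 7.53 and 6.85 CPM in nuclei and 37.3, 54.3 and 65.7 CPM in cortex (log2 -2.88 ± 0.12). All 5 tested host genes of small nucleolar RNAs were called higher. Gas5, whose introns hold many such RNAs and whose spliced transcript is degraded in the cytoplasm, had 411 and 359 CPM against 80.0, 86.5 and 103 CPM (log2 2.11 ± 0.06, adjusted p = 2.8e-15).

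The listed splicing factors and their kinases were higher. All 34 were called higher, 32 of them at 2-fold or more, with a median of 2.17 and a range of 0.74 to 3.16, and in all 34 both nuclei libraries lay above all cortex libraries. The list median stayed between 2.02 and 2.43 across all settings tried. Many genes of this family are known to carry introns that are retained until the transcript is needed. Pnn, a protein of the exon junction and speckles, had 469 and 375 CPM in nuclei and 41.0, 48.0 and 52.7 CPM in cortex, 8.91-fold higher (log2 3.16 ± 0.07, adjusted p = 9.9e-17). Srsf10, a splicing factor, had 230.2 and 202 CPM against 34.1, 51.3 and 67.1 CPM (log2 2.13 ± 0.07). Ddx5, an RNA helicase, had 1764 and 1740 CPM against 605, 642 and 747 CPM (log2 1.40 ± 0.07).

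Enzymes and readers of DNA methylation were mostly higher. Of 17, 12 were called higher and 5 lower, with a median of 0.93, and none was left uncalled. Tet2, which oxidises methylated cytosine, had 271 and 234 CPM in nuclei and 24.0, 27.4 and 31.4 CPM in cortex, 9.33-fold higher (log2 3.22 ± 0.07, adjusted p = 1.9e-16). Zbtb38, a zinc finger protein that binds methylated DNA, rose by 0.93 ± 0.07. Among the falls were the reader genes Mbd2 and Zbtb4, the gene Mbd3, and Uhrf1, which guides maintenance methylation. Mbd3, a subunit of a chromatin-remodelling complex, had 26.5 and 25.9 CPM against 66.1, 83.3 and 88.3 CPM (log2 -1.59 ± 0.07).

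Chromatin regulators followed the same direction. Of 36 histone modifiers and remodellers, 28 were called higher and 5 lower, with a median of 0.94. Kmt2a, a histone H3 lysine methyltransferase, had 442 and 466 CPM in nuclei and 68.4, 90.5 and 103 CPM in cortex (log2 2.43 ± 0.07, adjusted p = 1.5e-15). Kdm5b, a demethylase acting on the same histone, had 111 and 109.7 CPM against 51.9, 54.6 and 58.2 CPM (log2 1.01 ± 0.06). The 5 falls were in Chd3, Chd7, Hdac4, Ncor1 and Smarca2. Chd3, a remodelling ATPase, had 327 and 309.8 CPM against 629, 720.1 and 825 CPM (log2 -1.18 ± 0.09), and Hdac4, a histone deacetylase that shuttles to the cytoplasm, had 12.1 and 9.85 CPM against 23.7, 29.3 and 31.2 CPM.

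**Figure D2:**
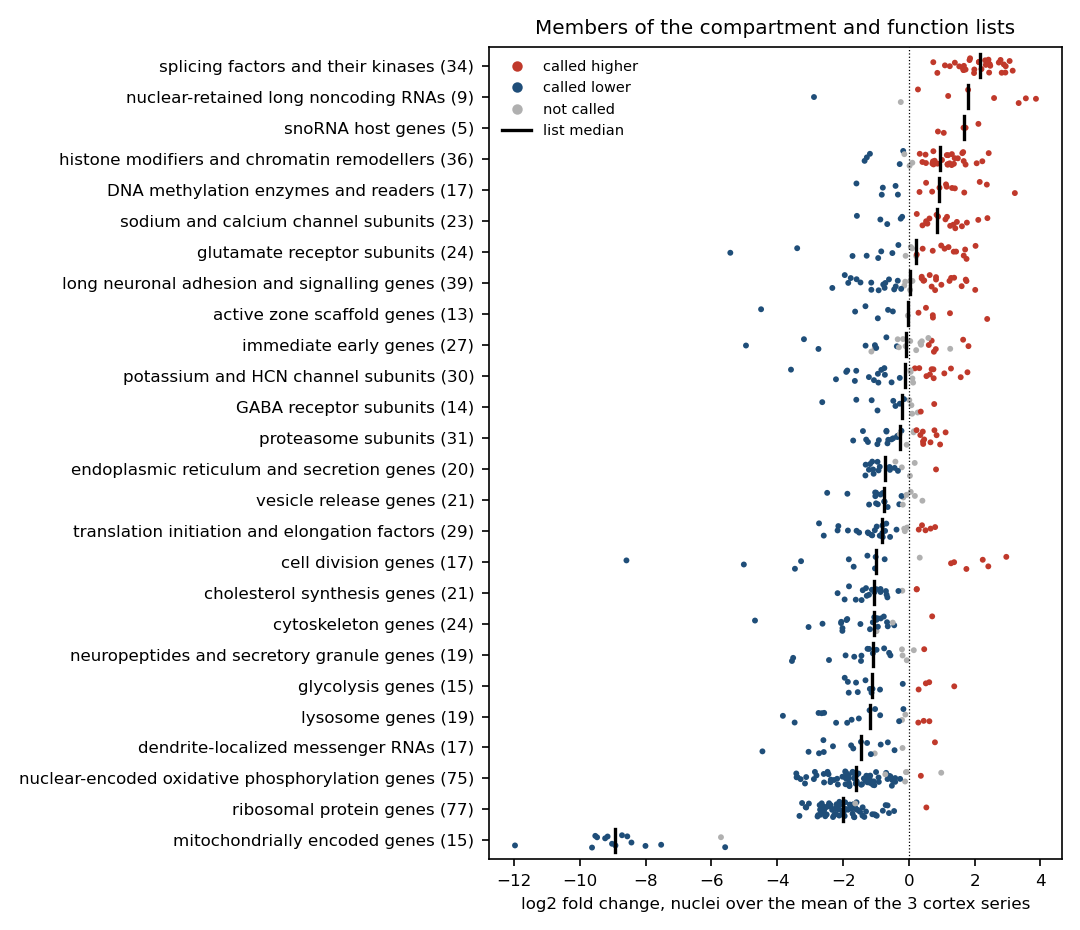
Each point is 1 gene, placed by its log2 fold change of nuclei over the mean of the 3 cortex series (horizontal axis), in rows by list with the number tested in brackets; red and blue points were called higher and lower, grey points were not called, and black bars are medians. Splicing factors sit between 0.74 and 3.16, ribosomal protein genes have a median of -2.01, and mitochondrially encoded genes reach a median of -8.92.

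At the other end stood the RNAs of mitochondria, which have their own genome. Of 15 mitochondrially encoded genes, 14 were called lower, each at 2-fold or more, and mt-Nd4l, which had no count in nuclei, was not called. The summed level was 264 and 371 CPM in nuclei against 113000 to 158000 CPM in cortex, 499.8-fold lower in nuclei library 1 and 356-fold lower in library 2. mt-Co1, a subunit of cytochrome oxidase, had 93.8 and 151 CPM in nuclei and 37910, 42860 and 46860 CPM in cortex (log2 -8.43 ± 0.21, adjusted p = 1.2e-14). mt-Cytb, a subunit of the bc1 complex, had 26.7 and 38.2 CPM against 15830, 19270 and 26010 CPM (log2 -9.23 ± 0.19). mt-Co2 had no count in nuclei, 3.36 to 4.56 CPM in the plain series and 31.0 to 37.6 CPM in the r and n series. Reads of mt-Co2, mt-Co3 and mt-Atp6 can be shared with near-identical copies in the nuclear genome, so that their levels are uncertain.

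Messenger RNAs for the translation apparatus were lower too. Of 77 ribosomal protein genes, 75 were called lower, 62 of them at 2-fold or more, with a median of -2.01. Rplp1, an acidic protein of the ribosomal stalk, had 30.2 and 47.7 CPM in nuclei and 319, 409 and 485 CPM in cortex (log2 -3.33 ± 0.17). Rpl4, a protein of the large subunit, had 98.3 and 95.8 CPM against 426, 441 and 476 CPM (log2 -2.20 ± 0.09). The only called rise was in Rpl10a, at 0.53, which was 1.16 against the plain series and 0.12 against the n series and did not pass with the n libraries as sole controls (adjusted p = 0.52). Ribosomal protein genes have many processed copies in the genome, so reads of single members are uncertain. Of 29 initiation and elongation factors, 21 were called lower and 5 higher. Eef2, which moves the ribosome along, had 208 and 208 CPM against 1138, 1449 and 1525 CPM (log2 -2.73 ± 0.10), whereas Eif4a2, an RNA helicase of initiation, had 632 and 622 CPM against 292, 344 and 459 CPM (log2 0.80 ± 0.07).

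Nuclear-encoded subunits of oxidative phosphorylation fell as well, 69 of 75 called lower and 52 at 2-fold or more, with a median of -1.59. Cox8a, a small subunit of cytochrome oxidase, had 43.9 and 59.4 CPM in nuclei and 471, 557 and 651 CPM in cortex (log2 -3.42 ± 0.13). Atp5b, the catalytic subunit of ATP synthase, had 248 and 272 CPM against 920, 981 and 1080 CPM (log2 -1.93 ± 0.09). The 1 called rise, in Ndufs3, was 0.36 and came from 72.9 and 69.9 CPM against 42.7, 57.5 and 66.6 CPM. It did not pass with the r libraries as sole controls (adjusted p = 0.30).

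Other lists of cell maintenance fell to differing degrees. Of 19 lysosome genes, 14 were called lower with a median of -1.20, of 21 cholesterol synthesis genes 18 with a median of -1.05, of 24 cytoskeleton genes 21 with a median of -1.07, and of 20 genes of the endoplasmic reticulum 15 with a median of -0.74. Psap, the precursor of the saposins, had 525 and 592 CPM in nuclei and 1631, 1909 and 1950 CPM in cortex (log2 -1.74 ± 0.09). Tubb2b, a tubulin that glia and young neurons also make, had 8.30 and 11.2 CPM against 205, 249 and 338 CPM (log2 -4.68 ± 0.15). Mapt, the axonal microtubule protein tau, was the sole cytoskeletal gene called higher, with 519 and 451 CPM against 267, 291 and 333 CPM (log2 0.71 ± 0.08). The 31 proteasome subunits were divided, 11 called higher and 16 lower, and their summed level was 2031 and 1988 CPM within a cortex range of 1897 to 2357 CPM. Of 15 glycolysis genes, 11 were called lower and 4 higher, led by the phosphofructokinase Pfkp (log2 1.38 ± 0.08).

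Messenger RNAs that neurons send into dendrites were among the neuronal genes that fell. Of 17 such genes, 14 were called lower, 9 at 2-fold or more, and 1 higher, with a median of -1.46, and the summed level was 5408 and 5511 CPM against 19920 to 23870 CPM. Kif5a, a kinesin motor of axonal and dendritic transport, had 296 and 292 CPM in nuclei and 5453, 6320 and 7695 CPM in cortex, 21.9-fold lower (log2 -4.45 ± 0.11, adjusted p = 2.8e-16). Psd, an exchange factor of the postsynaptic density, had 204 and 229 CPM against 467, 622 and 688 CPM (log2 -1.46 ± 0.09). The exception was Fmr1, the RNA-binding protein lost in fragile X syndrome, with 125 and 127 CPM against 56.3, 68.9 and 87.4 CPM (log2 0.79 ± 0.07). Arc, whose RNA moves into dendrites after activity, was not called and varied from 67.3 to 709 CPM within cortex.

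Secreted peptides and the proteins of their granules fell in 14 of 19 cases, 10 of them at 2-fold or more, with a median of -1.09. Cpe, the carboxypeptidase that trims prohormones, had 479.8 and 605 CPM in nuclei and 5832, 6329 and 7277 CPM in cortex (log2 -3.55 ± 0.11). Vgf, a granule protein, had 64.0 and 86.0 CPM against 127, 169 and 173 CPM (log2 -1.09 ± 0.14). Tac1, the precursor of substance P, was the 1 called rise, with 30.0 and 44.2 CPM against 21.8, 27.0 and 31.8 CPM (log2 0.47 ± 0.13). Its groups overlapped, and the call was lost without nuclei library 2 (adjusted p = 0.25).

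Genes of the synaptic vesicle cycle moved down, those of the active zone in both directions. Of 21 vesicle release genes, none was called higher and 15 were called lower, with a median of -0.75. Cplx2, a complexin that clamps vesicle fusion, had 157 and 215 CPM in nuclei and 954, 1051 and 1112 CPM in cortex (log2 -2.48 ± 0.12). Syn1, a synapsin that tethers vesicles, had 238 and 251 CPM against 339.8, 388 and 495 CPM (log2 -0.75 ± 0.09). Of 13 scaffold genes, 6 were called higher and 6 lower, and their median of -0.03 turned to 0.23 with scaling by library size alone. Unc13b, a priming factor, had 325 and 250.0 CPM against 51.1, 54.8 and 61.1 CPM (log2 2.38 ± 0.08), while its relative Unc13c had 2.79 and 3.16 CPM against 48.0, 67.5 and 95.4 CPM (log2 -4.49 ± 0.17). Rims1, a large scaffold protein, had 236 and 207 CPM against 582, 669 and 816 CPM (log2 -1.63 ± 0.09).

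Subunits of glutamate receptors differed by class. Of 24, 12 were called higher, 7 at 2-fold or more, and 8 lower. The 4 AMPA receptor subunits Gria1 to Gria4 were all called higher, at log2 1.09, 1.44, 1.71 and 1.67. Gria2, the subunit that sets calcium entry, had 1383 and 1277 CPM in nuclei and 361, 472 and 584 CPM in cortex (SE 0.10, adjusted p = 1.7e-10). Of the 5 kainate receptor subunits, 4 were called higher, and Grik5 was not called. Grik2 had 218 and 198 CPM against 43.2, 50.4 and 57.1 CPM (log2 2.03 ± 0.07, adjusted p = 3e-14). Of the 6 NMDA receptor subunits tested, 5 were called lower and 1, Grin2d, higher. Grin2c, the subunit that cortical astrocytes make, had 2.69 and 1.67 CPM against 76.4, 99.9 and 109 CPM (log2 -5.43 ± 0.16). The common subunit Grin1 stood at -0.50, Grin2a at -1.71 and Grin2b at -0.93. This grouping by class was made after the values were seen.

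**Figure D3:**
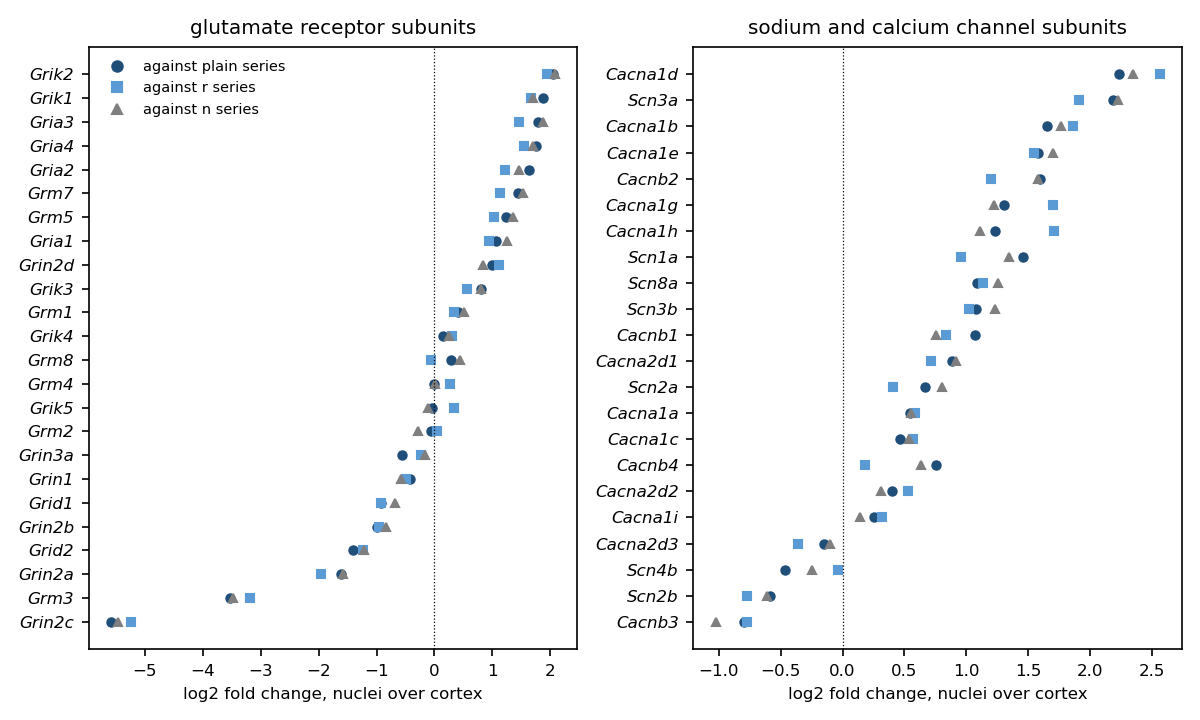
Log2 fold change of nuclei over cortex (horizontal axis) for subunits of glutamate receptors (left) and of sodium and calcium channels (right, 22 of 23 tested drawn), with 1 point each against the plain, r and n cortex series, which share the same 2 nuclei libraries. AMPA and kainate receptor genes lie mostly right of 0, Grin2c lies at -5.58 against the plain series, and 18 of 23 channel genes were called higher.

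Voltage-gated sodium and calcium channels were mostly higher. Of 23 subunits, 18 were called higher, 9 at 2-fold or more, and 5 lower, with a median of 0.84, and the summed level was 4862 and 4986 CPM against 2813 to 3324 CPM. Cacna1d, the pore of an L-type calcium channel, had 266 and 233 CPM in nuclei and 40.9, 50.0 and 56.0 CPM in cortex (log2 2.39 ± 0.06, adjusted p = 8.7e-16). Scn8a, the sodium channel of the axon initial segment, had 636 and 568 CPM against 245, 263 and 303 CPM (log2 1.16 ± 0.08). Among the falls were the auxiliary subunits Scn2b, Scn4b, Cacnb3 and Cacna2d3. Not every auxiliary subunit fell: Cacna2d1 rose by 0.84 ± 0.09.

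Potassium and HCN channels showed no common direction. Of 30 subunits, 11 were called higher and 15 lower, and the median of -0.11 turned to 0.15 with scaling by library size alone. Kcnt2, a sodium-activated potassium channel, had 97.0 and 82.1 CPM in nuclei and 18.0, 25.2 and 34.7 CPM in cortex (log2 1.78 ± 0.08). Kcna2, an axonal potassium channel, had 2.67 and 2.99 CPM in nuclei against 28.8, 34.1 and 40.5 CPM (log2 -3.58 ± 0.13). Of 14 GABA receptor subunits, 2 were called higher and 8 lower, and their median of -0.21 turned to 0.05 with scaling by library size alone. Gabrg1, a subunit that astrocytes also make, had 6.46 and 10.8 CPM against 48.5, 53.6 and 57.4 CPM (log2 -2.63 ± 0.16), and Gabrg3 rose by 0.77 ± 0.08.

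Adhesion and signalling genes known for very long introns were evenly divided, 17 of 39 called higher and 17 lower. This lies near the 42.2% called in each direction over all genes tested, and intron length was not measured here. Their median of 0.04 turned to -0.11 with upper-quartile scaling and to 0.30 with scaling by library size alone. Csmd1, a membrane protein with complement-control domains, had 212 and 221 CPM in nuclei and 46.5, 52.7 and 60.9 CPM in cortex (log2 2.02 ± 0.07, adjusted p = 3e-14). Ptprd, a receptor phosphatase that organises synapses, had 964 and 844 CPM against 257, 311 and 325 CPM (log2 1.604 ± 0.09). Kirrel3 did not differ beyond the spread, with 46.7 and 47.5 CPM against 43.3, 44.9 and 48.9 CPM.

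**Figure D4:**
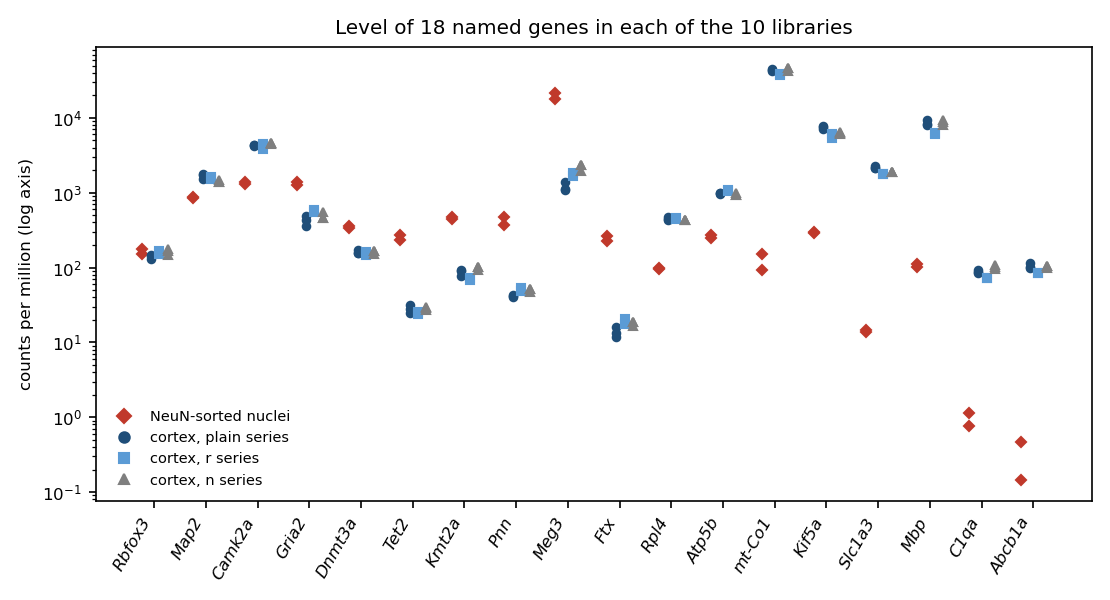
CPM on a log axis for 18 named genes in all 10 libraries, with nuclei as red diamonds and the cortex series in blue, light blue and grey. Rbfox3 overlaps between groups, whereas the other 17 genes show no overlap: Meg3 reaches 21140 CPM in nuclei, and Abcb1a falls to 0.145 CPM.

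Immediate early genes, which neurons and other cells switch on within minutes of a stimulus, went both ways. Of 27, 6 were called higher, 8 lower and 13 were not called. Their summed level was 1137 CPM in nuclei library 1 and 1792 CPM in library 2, within the cortex range of 872 to 1943 CPM. Nr4a1, a nuclear receptor of this class, had 160.3 and 208 CPM in nuclei and 28.1, 58.4 and 97.4 CPM in cortex (log2 1.81 ± 0.34, adjusted p = 0.0021). Arc had 56.5 and 153 CPM against 67.3, 226 and 709 CPM, with overlap between the groups (log2 -1.04 ± 0.62, adjusted p = 0.16). Klf4, which endothelial cells also express, had 0.474 and 0.338 CPM against 8.76, 12.8 and 17.3 CPM (log2 -4.95 ± 0.23). Without nuclei library 1 the list median moved from -0.10 to 0.34.

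Cell division genes also went both ways, 6 of 17 called higher and 10 lower. Cdk1, the mitotic kinase, had no count in nuclei and 1.02, 1.58 and 2.30 CPM in cortex, at least 44.0-fold lower than in the cortex libraries together when 3 counts over both nuclei libraries are taken as the floor. Plk1, a kinase of mitosis, had 10.99 and 8.62 CPM against 0.919, 1.40 and 1.62 CPM (log2 2.96 ± 0.15, adjusted p = 2.8e-12). Ccna2, a cyclin, had 21.3 and 18.5 CPM against 2.96, 3.72 and 4.39 CPM (log2 2.41 ± 0.11). Both rises were without overlap between groups.

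Over all genes, the 10 largest rises among genes called at 2-fold or more, without overlap and with log2 CPM averaging 3 or more, were in Ftx, Lin28b, Meg3, Zcchc7, Hdx, Snhg11, Tnfrsf25, Hook1, Ovgp1 and Mir5125; Ftx, Meg3 and Snhg11 are also members of the noncoding RNA list. Lin28b, an RNA-binding protein known from early development that blocks let-7 maturation, had 48.1 and 45.6 CPM in nuclei and 3.06, 3.38 and 4.07 CPM in cortex, 13.4-fold higher (log2 3.75 ± 0.09, adjusted p = 2e-16). Zcchc7, a zinc knuckle protein of nuclear RNA surveillance, had 414 and 354 CPM against 30.8, 33.3 and 37.3 CPM (log2 3.52 ± 0.07). Hook1, a linker between cargo and microtubule motors, had 544 and 491 CPM against 47.9, 51.0 and 63.3 CPM (log2 3.30 ± 0.07). Hdx, a homeobox gene of the X chromosome, had 73.1 and 66.9 CPM against 5.76, 6.54 and 7.67 CPM (log2 3.38 ± 0.08). Against each of the 3 cortex series the rises of these 4 genes lay between 3.21 and 3.81.

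The series mattered more for the rest. Tnfrsf25, a death-domain receptor, had 99.6 and 74.1 CPM in nuclei and 4.40, 7.97 and 19.0 CPM in cortex, and its log2 fold change was 3.45, 4.19 and 2.28 against the plain, r and n series. Mir5125 had 41.3 and 32.3 CPM against 1.24, 5.05 and 7.41 CPM, with log2 fold changes of 4.53, 2.87 and 2.38. Its count comprises reads over a microRNA gene in a library of messenger RNA and is no measure of the mature microRNA. Of the 10 largest falls, 9 were mitochondrially encoded. The remaining fall was in Mmrn2, a matrix protein of endothelium, with 1 count in the nuclei libraries together and 9.55, 12 and 21.9 CPM in cortex, a ratio of 1036 with a 95% counting interval of 186 to 40910.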

How the data were processed

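Nuclei were released from cortex in a dounce and sorted on NeuN, and a stranded kit for mRNA was used, per the labels' protocols. The deposited values are counts, whole reads per gene, which the authors made with STAR 2.5.4a, HTSeq 0.11.0 and mouse build mm9, per the submitters' processing notes. Annotation release and strand setting are not given in the sources used here, so overlapping and antisense genes may share reads. The files list 37310 identifiers, 32620 of them with a symbol from the supplied table.

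Lines that name no gene held 31.9% and 32.9% of reads in nuclei and 21.1% to 28.3% in cortex and were left out. Counts were tested with edgeR 4.0.16 in R 4.3.3 (filterByExpr, TMM, robust quasi-likelihood fit with 4 group means, Benjamini-Hochberg over 17317 genes), nuclei against the mean of the 3 series means. CPM use TMM library sizes. SE values come from the test (absolute log2 fold change divided by the root of F). On simulated counts, with 16468 genes run for this comparison, 198 of 200 changed genes were recovered. The simulation changed only well-counted genes, by 2-fold or more, and gave the 3 cortex series the same mean and every gene the same spread. Most genes were left unchanged in it, so it cannot show how the test performs where 84.4% of genes are called. Replicates differed by more than counting error in every pair, so no library was taken for a repeat. What the p-values measure is library-to-library spread. Xist was above 10 CPM in 1 library of each group and near absent in the rest, so each group held libraries of different animals. How much of the spread is technical is not known.

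The comparison and its 39 gene lists (917 genes) were chosen with earlier results of these data known. Named genes were Rbfox3 and Dnmt3a, the 10 largest changes in each direction (average log2 CPM of at least 3, called at 2-fold, no overlap, no predicted genes), and per list the largest called rise and fall, the highest level and the gene nearest the median; other members are named only where a count was small or after their values were seen. Alternatives were other scalings, no filter, DESeq2 1.42.0, single cortex series, a replicate block and libraries left out. A few genes that these rules would name are not reported here.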

Additional observations from a re-analysis of the deposited data

Results flagged for a closer look

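Reads that fall in no annotated feature are not part of the gene comparison, and they held a signal above that of the cortex libraries. Their share was 27.13% ± 0.74 (SD, n = 2) in nuclei and 8.15% ± 0.41 (SD, n = 8) in cortex, 3.33 times as high, with p = 0.022 in the exact permutation test.

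A total of 124 genes were called in opposite directions against 2 of the cortex series, by the same fit with one contrast per series. The 3 contrasts share the nuclei libraries, so the differences lie between the cortex series. In 85 of the 124 the plain series differed in sign from both the r and the n series, with nuclei higher than plain and lower than the others in 71. Atp5l, a subunit of ATP synthase, had log2 fold changes of 3.81, -0.50 and -0.36 against the plain, r and n series, and Sec61g, a subunit of the protein translocon, 2.21, -1.02 and -0.66. Stmn1, which destabilises microtubules, had 0.53, -1.16 and -0.83. Of the 124 genes, 7 are in the lists. None of the 124 entered the calls of the report, which ask for 1 direction.

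No group had 4 or more libraries, so no test for a single outlying library was run.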

How the results depend on the processing

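The 4 counts of called genes stayed within 1.5 times their value in all 23 alternatives, and no alternative called a gene in the direction opposite to the reported one. Scaling by library size alone moved the median of the same genes by 0.26 and gave 8426 higher and 6192 lower (57.6% higher), and upper-quartile scaling moved it by -0.15 and gave 6652 and 7963 (45.5% higher, against 50.0%). DESeq2 gave 7040 and 7249. Without any 1 library the counts ran from 7095 to 7436 higher and from 6933 to 7395 lower. Without the plain series, an alternative chosen after seeing the data, they were 7164 and 7201.

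Labels give the libraries numbers, but the numbers were not taken to pair them: the deviations of same-numbered nuclei and cortex libraries correlated at -0.20 to 0.19. The signs went with Xist: nuclei library 2 correlated at 0.163, 0.185 and 0.244 with plain 2, r2 and n3, the cortex libraries with Xist. With all other cortex libraries its correlations were negative. The reason was not tested, and Xist or sex was not part of any fit. With a replicate block, 7215 genes were called higher and 7170 lower, and 3619 and 4260 at 2-fold or more; of the genes named, Kcnh1 and Lss lost their calls.

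The following values changed sign, and the cause was not tested. With library size alone the medians were 0.168 for immediate early genes, 0.231 for active zone genes, 0.05 for GABA receptors and 0.148 for potassium channels, and the genes Btg2 and Cask stood at 0.168 and 0.231. With upper-quartile scaling the inhibitory markers stood at -0.09 and the long adhesion genes at -0.112, Dlx6os1 at -0.09, Kirrel3 at -0.112 and Rbfox3 at -0.044. With no filter the long adhesion genes and Kirrel3 stood at -0.019. Against the plain series alone, Psma5 was 0.171. Against the r series alone, inhibitory markers were -0.162, immediate early genes 0.161, long adhesion genes -0.128, Arc 0.088, Btg2 0.291, Dlx6os1 -0.162 and Grm8 -0.078. Against the n series alone, active zone genes and Cask were 0.036, Kirrel3 -0.007 and Rbfox3 -0.038. Without the plain series, inhibitory markers were -0.038 and Dlx6os1 -0.04. With 1 library left out at a time, the values ran from -0.475 to 0.341 for immediate early genes, -0.079 to 0.181 for inhibitory markers, -0.025 to 0.055 for long adhesion genes, -1.081 to 0.481 for Btg2, -0.012 to 0.213 for Rbfox3, -0.079 to 0.189 for Dlx6os1 and -0.025 to 0.058 for Kirrel3. All other medians and named genes reported here kept their sign in every alternative run. The changes of sign with 1 library left out came without nuclei library 1 or 2, plain library 1, or r library 1 or 2. Over the alternatives, these genes lost a call 68 times, most often Rsph1, Lss and Ttr, and gained one 12 times. List medians moved by less than the SD between the nuclei libraries 684 times, moved by more with the same sign 193 times and changed sign 18 times.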

Other observations

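Families read from gene symbols, chosen after their values were seen, extend the picture beyond the lists. Of 354 tested Zfp genes, which code for zinc finger proteins that bind DNA or RNA, 241 were called higher and 63 lower, with a median log2 fold change of 0.88. Of 31 Snord and Snhg genes, small nucleolar RNAs and their hosts, 28 were called higher and none lower, with a median of 2.85. Of 49 microRNA genes, 41 were called higher, with a median of 2.53, although these libraries do not measure mature microRNAs. Of 14 genes with Hist symbols, which code for histones, 11 were called lower and none higher, with a median of -2.55. Of 134 genes with pseudogene symbols, 89 were called lower and 18 higher, with a median of -2.70. The 66 Rab genes of vesicle traffic were called lower in 42 cases and higher in 19, and the 79 genes of mitochondrial ribosomal proteins lower in 43 and higher in 22.

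Xist, the noncoding RNA that coats the inactive X chromosome of females, was above 10 CPM in 1 library of each group. It stood at 2970 CPM in nuclei library 2, and at 430.1, 339 and 383 CPM in the cortex libraries plain 2, r2 and n3, ratios of 6.90, 8.76 and 7.76. The other 6 libraries had at most 0.872 CPM. The same nuclei library held Malat1 at 3.68 to 5.72 times its level in the cortex libraries.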
